A study of Sus scrofa with 27 samples.

Results

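The genes described here are interferon-stimulated genes of the pig lung, taken by name from a list of 39, and measured in lungs kept alive outside the body by ex vivo lung perfusion (EVLP). Of these 39 names, 34 had a row in the table of 31908 genes and at least 10 counts in 1 library or more, and these 34 are the genes described. The other 5 (IFIT3, XAF1, GBP1, RTP4 and PLAC8) had no row under their name. RNA-seq was run on lung tissue of 9 pigs at 0h, 6h and 12h of EVLP, which gave 27 libraries with 1 library per pig and time. The lungs came from Large White pigs and were taken after circulatory arrest, then cooled and perfused with Steen solution containing methylprednisolone, cefuroxime and heparin. In the gold standard (GS) group (5 pigs, numbered 9, 17, 44, 55 and 77) part of the perfusate was replaced at intervals. In the pediatric dialysis (PD) group (4 pigs, numbered 2, 3, 4 and 5) the perfusate was dialysed continuously through a pediatric membrane. The steroid was thus present in both groups. Each library is a separate biopsy, and the replicates are separate pigs.

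Interferons are cytokines that signal through receptors on nearly all cells. Type I and III interferons activate the kinases JAK1 and TYK2, and a transcription factor that includes STAT2 and IRF9 then binds the interferon-stimulated response element (ISRE), a repeat of the letters GAAA. IRF1 binds related letters. The induced genes encode sensors of foreign RNA and DNA, enzymes that degrade RNA or block translation, the ubiquitin-like protein ISG15 with its conjugation enzymes, antiviral GTPases and parts of antigen presentation. In the lung, airway and alveolar epithelium, endothelium and macrophages can all respond.

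The promoters are shown because the ISRE is a feature that many of these genes share. In windows from 250 bases before to 50 bases after the RefSeq transcript start (build Sscrofa11.1), the ISRE core (GAAA, any 2 letters, GAAA) was found on either strand in 20 of 34 genes (58.82%), against 732 of 19548 promoters of all genes (3.745%). The core of a STAT site, TTCNNNGAA on either strand, was found in 1 of 34 (SAMD9, 2.941%), against 1352 of 19548 (6.916%). Windows of 6 genes that the results below turn on follow, in gene orientation, with 1 core each in capitals, which reads TTTC, any 2 letters, TTTC where it lies on the other strand.
ISG15: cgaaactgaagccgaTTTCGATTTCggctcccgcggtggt
IFIT2: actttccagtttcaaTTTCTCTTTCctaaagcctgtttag
IFIT5: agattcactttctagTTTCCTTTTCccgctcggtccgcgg
RSAD2: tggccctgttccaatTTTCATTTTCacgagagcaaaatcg
DTX3L: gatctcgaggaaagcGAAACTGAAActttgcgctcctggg
TAP1: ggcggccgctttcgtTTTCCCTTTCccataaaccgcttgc
They lie at chr6:63363078-63363117 (+ strand) for ISG15, chr14:101193444-101193483 (+ strand) for IFIT2, chr14:101254615-101254654 (+ strand) for IFIT5, chr3:128897915-128897954 (− strand) for RSAD2, chr13:137961395-137961434 (− strand) for DTX3L and chr7:25071955-25071994 (− strand) for TAP1. All lie upstream of the start. ISG15 held 3 matches to the core, RSAD2 1, and IFIT2, IFIT5, DTX3L and TAP1 held 2 each. The 2 matches of DTX3L are also those of PARP9, whose window overlaps it on the other strand. Both genes count among the 20 with the core. Among the genes with no match were OAS1, DHX58, MX1, MX2, STAT2 and TRIM25, which says only that these letters are not in this window. The RefSeq start is not always that of the counted row. The OAS1 window lies at chr14:38867378-38867677 (− strand), outside the OAS1 row at chr14:38851918-38859409. The IFIT2 row begins at chr14:101185589, upstream of the window shown.

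Depth separated the groups. The GS libraries held 26335584 to 67522703 counts (median 53623755) and the PD libraries 14650700 to 21820935 (median 19344265). A batch of libraries and the group therefore cannot be told apart in any comparison of levels between PD and GS. Genes with short transcripts also stood higher in PD: the median log2 PD to GS difference of genes with at most 1500 bases exceeded that of genes with 4000 bases or more by 1.36 at 0h, 0.783 at 6h and 1.19 at 12h. Of the 34 genes, 7 were in the short class and 10 in the long class. The libraries of PD pigs 2 and 4 stood apart. In PD pig 2 at 12h, 57.3% of all genes differed over 2-fold from the median of the other PD libraries of that time, and short genes exceeded long genes by 1.79 on the log2 scale, against −0.734 to 0.645 in the other 26 libraries. In PD pig 4 at 6h the interferon-stimulated genes themselves stood apart, as described below. Counts of genes that passed are given with and without a library where they rest on it. Lung cell markers were present in every library. The summed level of 5 of 6 alveolar type 2 cell markers ranged from 4960 to 14564 CPM (counts scaled to a common TMM library size, with the same factor for every gene of a library) in GS and from 15328 to 88368 in PD. At 0h the groups did not overlap in the sums of the 6 endothelial markers (3410 to 5428 CPM in GS and 1510 to 2482 in PD), of 4 of 7 monocyte and neutrophil markers (141 to 394 and 638 to 1259) and of 4 of 5 B and plasma cell markers (224 to 320.2 and 471 to 2131). Red cell markers (2 of 3 with a row) summed to 0.355 to 10.3 CPM in GS and to 7.78 to 359 in PD. Single markers went both ways in PD against GS at 0h (edgeR, adjusted p under 0.05). Of the 6 endothelial markers 1 was higher and 4 lower, and of 5 alveolar type 2 markers 1 and 1. Of 4 monocyte and neutrophil markers 2 were higher and 1 lower, and of 4 B and plasma cell markers 2 and 1. The levels of 32.4% of all genes tested did not overlap between the groups at 0h. The part of these marker differences in the levels of the 34 genes was not tested. In tissue RNA, fewer cells of a type and less RNA per cell cannot be told apart.

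**Figure D1:**
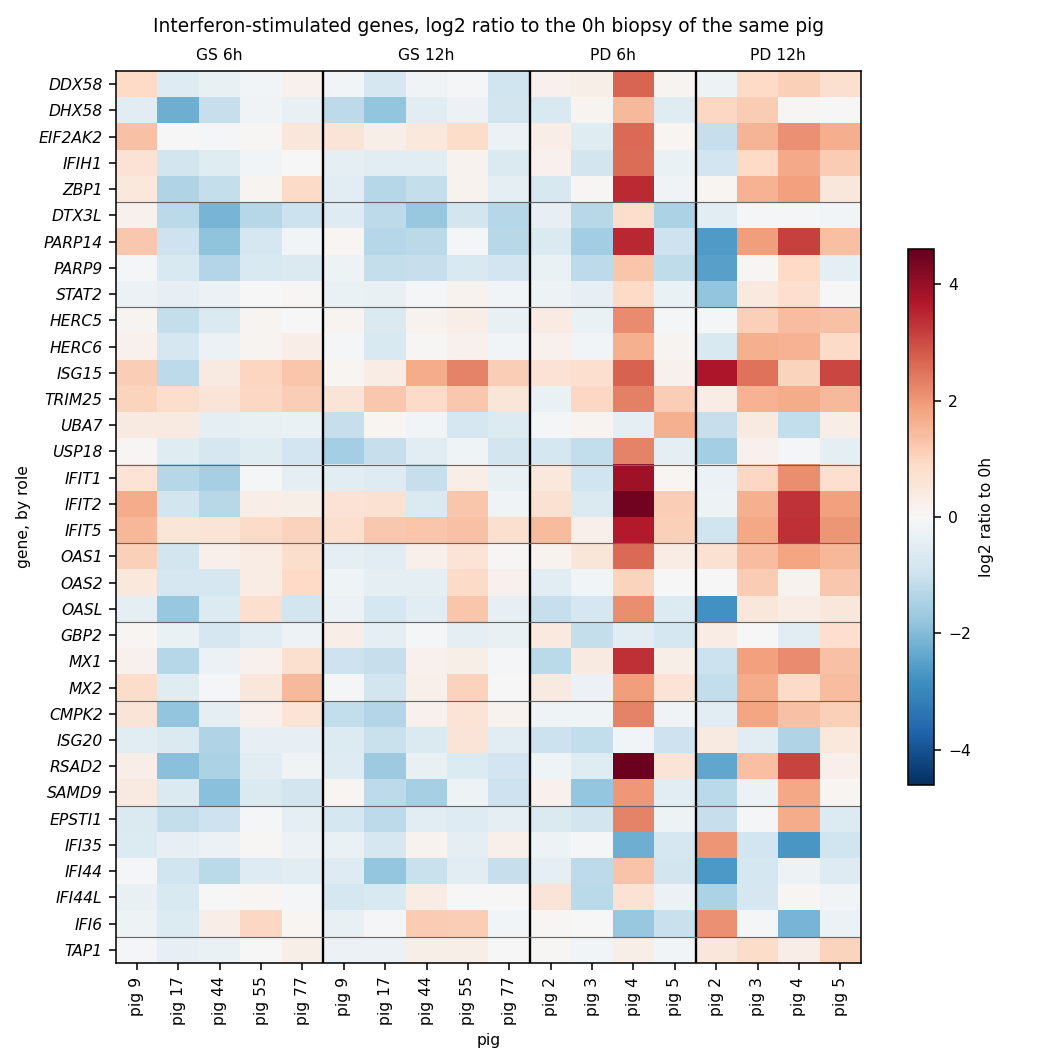
Heat map of the log2 ratio of each of the 34 genes (rows, grouped by role) to the 0h biopsy of the same pig, for each pig (columns) at 6h and 12h. PD pig 4 at 6h is the column with the highest ratios (median 2.15), and PD pigs 3, 4 and 5 at 12h also stand above 0 for most genes.

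The first question was how the genes moved over time in the GS procedure. Most of their fitted changes lay slightly below 0, and some passed the test in each direction. At 6h against 0h, 8 of 34 passed the test (edgeR, adjusted p under 0.05 over all genes tested), 2 higher and 6 lower, while 28.5% of the 18594 genes tested passed (13.6% higher and 14.9% lower). At 12h, 11 of 34 passed, 3 higher and 8 lower, against 38.4% of all genes (17.6% higher and 20.8% lower). The share that passed (23.5% and 32.4%) was below that of all genes at both times. The median log2 fold change of the 34 was −0.19 at 6h and −0.29 at 12h, against −0.05 and −0.08 over all genes tested, and 24 and 27 of 34 were below 0. Of the genes that passed at 12h, 4 reached 2-fold, against 15.7% of all genes. With the GS and PD libraries in 1 fit, TRIM25 and DTX3L alone of the 34 passed in GS at 6h and 12h (8.98% and 16.1% of all genes), and the calls of the other 9 at 12h ended, with adjusted p-values from 0.0538 (IFI44) to 0.322 (RSAD2).

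Among the genes that rose in GS were TRIM25 and IFIT5. TRIM25 encodes a ubiquitin ligase that also activates the sensor RIG-I and can attach ISG15. It measured 57.2, 87.6, 86.9, 86.8 and 113 CPM at 0h in pigs 9, 17, 44, 55 and 77, and 118, 153, 132, 169.9 and 249 CPM at 6h. At 12h it measured 85.3, 208, 161, 206 and 168 CPM. Every pig was above its own 0h value at both times, and the log2 change with its SE was 0.91 ± 0.15 at 6h (adjusted p = 0.00137) and 0.89 ± 0.15 at 12h (adjusted p = 0.000854). IFIT5, an IFIT protein that binds RNA ends, rose by 0.94 ± 0.19 at the earlier time (adjusted p = 0.0035) and by 1.06 ± 0.19 at the later (adjusted p = 0.00111), also in 5 of 5 pigs. The other IFIT genes did not pass, with log2 changes of −0.49 (IFIT1) and 0.31 (IFIT2) at 12h.

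The genes that fell in GS were led by DTX3L, a ubiquitin ligase that works with PARP9 and is transcribed from the neighbouring start on the opposite strand. DTX3L measured 18.8, 27.2, 16.0, 17.3 and 16.5 CPM at 0h and 12.3, 11.8, 4.77, 9.7 and 6.57 CPM at 12h, in the same order of pigs. These groups do not overlap, and the change was −1.22 ± 0.25 (SE, adjusted p = 0.0027). PARP9 fell by 0.84 ± 0.17 (adjusted p = 0.00267) at 12h and IFI44 by 1.02 ± 0.19 (adjusted p = 0.00153), both in 5 of 5 pigs. The sensor gene DHX58 (LGP2) fell by 1.0 ± 0.27 (adjusted p = 0.0107) and USP18, which removes ISG15 and damps receptor signalling, by 0.81 ± 0.24 (adjusted p = 0.0165). RSAD2 (viperin, an antiviral enzyme) fell by 0.87 ± 0.29 at 12h (adjusted p = 0.0301), and this call was lost without pig 17, 55 or 77 (adjusted p up to 0.106). EPSTI1 fell by 0.74 in 5 of 5 pigs and SAMD9 by 0.85 in 4 of 5. Leaving out pig 17 also ended the calls of USP18 and SAMD9 at 12h and of DHX58 and SAMD9 at 6h, pig 44 those of SAMD9 at 12h and of DHX58, IFI44, PARP9 and SAMD9 at 6h, pig 55 that of SAMD9 at 6h, and pig 77 those of SAMD9 at both times and of IFI44 at 6h. Between 6h and 12h none of the 34 genes passed in GS with edgeR or DESeq2, none had an unadjusted p under 0.05 in edgeR (4.74% of all genes did), and no gene of the whole table passed in edgeR.

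ISG15 was the gene with the largest rise in PD and also rose in GS. It encodes the ubiquitin-like modifier that gives the conjugation system its name. In GS it measured 24.9, 38.1, 15.2, 13.3 and 22.0 CPM at 0h, 54.9, 16.5, 20.4, 26.4 and 53.7 CPM at 6h, and 26.6, 47.9, 49.6, 65.4 and 48.7 CPM at 12h. In PD (pigs 2, 3, 4 and 5) it measured 82.0, 37.5, 116 and 35.1 CPM at 0h, 130.0, 64.2, 766 and 40.7 CPM at 6h, and 1094, 212, 238 and 292 CPM at 12h. Every PD pig was higher at 12h than at 0h, and all 4 PD libraries at 12h lay above all 5 GS libraries. The log2 change from 0h to 12h was 1.11 ± 0.37 in GS (SE, adjusted p = 0.0319, lost without pig 44, 55 or 77) and 2.90 ± 0.67 in PD (adjusted p = 0.0329, lost without pig 3 or 5, up to 0.278). The difference of these changes, tested as the interaction, was 1.74 ± 0.75 with an unadjusted p of 0.0308 and an adjusted p of 0.804. Its highest value was in PD pig 2 at 12h, the library rich in short transcripts, and ISG15 has the shortest transcript of the 34 (609 bases). Without that library its PD change was 2.38 (adjusted p = 0.0156).

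**Figure D2:**
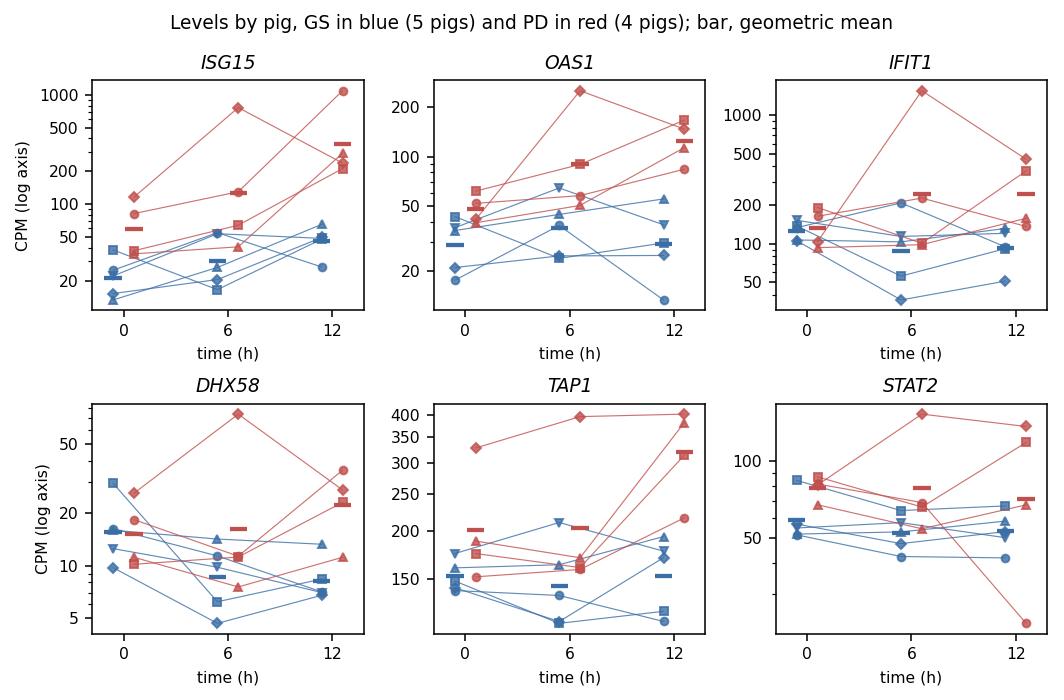
Normalised read counts (CPM, log axis) of 6 genes by pig and time, with GS in blue and PD in red, a marker shape for each pig in the order of its number, and a bar for the geometric mean. For ISG15, OAS1, IFIT1 and TAP1 all 4 PD libraries at 12h lie above the 5 GS libraries, and PD pig 4 is the highest PD pig at 6h for all 6 genes, which include DHX58 and STAT2.

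The spread of the 34 genes between the PD pigs was widest at 6h. The median SD of the log2 levels of the 34 genes was 0.546 at 0h, 1.36 at 6h and 0.853 at 12h, against 0.540, 0.572 and 0.797 over all genes. It was also widest at 6h in GS, at 0.477, 0.732 and 0.557, against 0.375, 0.520 and 0.541 over all genes. In PD at 6h against 0h none of the 34 passed in edgeR or DESeq2 (3 at an unadjusted p under 0.05, against 9.41% of all genes), and 0.142% of the 15545 genes tested passed. Their median log2 change was 0.24, with 25 of 34 above 0, and the median of all genes was −0.02. At 12h, ISG15 alone passed, against 5.98% of all genes (3.22% higher), and 5 of 34 had an unadjusted p under 0.05 (14.7%, against 24.5% of all genes). The median of the 34 was 0.65 at 12h, with 22 above 0. Beside ISG15, OAS1 had a log2 change of 1.33 ± 0.42 (SE, adjusted p = 0.0823), TRIM25 one of 1.23 ± 0.40 (adjusted p = 0.0899) and TAP1 one of 0.68 ± 0.30 (adjusted p = 0.194), each higher in 4 of 4 pigs. IFI44, which fell in GS, was at −1.02 ± 0.50 in PD (adjusted p = 0.236), lower in 4 of 4 pigs, and at −0.64 ± 0.42 without the 12h library of pig 2 (adjusted p = 0.260). Between 6h and 12h none passed with edgeR (1 at an unadjusted p under 0.05, against 10% of all genes) or DESeq2.

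PD pig 4 at 6h carried the values at that time. In this pig the median log2 ratio to 0h of the 34 genes was 2.15, with 29 above 0 and 25 over 2-fold higher, while 27.5% of all genes tested were over 2-fold higher in the same pair of libraries. In PD pigs 2, 3 and 5 the medians at 6h were −0.13, −0.35 and −0.16, and 1, 0 and 4 genes were over 2-fold higher (11.3%, 12.7% and 15.1% of all genes). In pig 3, 9 of the 34 were over 2-fold lower, against 9.80% of all genes. The library held the highest PD level at 6h for 30 of 34 genes. IFIT1, which encodes a protein that blocks translation of foreign RNA, measured 164, 191, 104 and 93.2 CPM at 0h in PD pigs 2, 3, 4 and 5, and 227, 100.8, 1556 and 98.3 CPM at 6h. RSAD2 measured 89.1, 42.7, 12.2 and 13.3 CPM at 0h and 77.7, 29.0, 277 and 20.02 CPM at 6h. MX1, an antiviral GTPase, measured 94.6, 29.8, 37.8 and 32.0 CPM at 0h and 40.0, 40.0, 389.7 and 38.3 CPM at 6h. For each of these genes the value of pig 4 at 6h was several times that of any other PD pig. Not every gene took part: IFI35 and IFI6 were lower in pig 4 at 6h (33.6 and 237 CPM) than at 0h (159.8 and 784 CPM). The 0h library of the same pig, from which the ratios are taken, also differed over 2-fold from the median of the other PD libraries of that time for 39.5% of genes. Without the 6h library of pig 4 the median change in PD at 6h was −0.10, with 13 of 34 above 0.

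Cell type markers in the same pig moved as follows from 0h to 6h. The sum of the 6 endothelial markers was 2.31 times its 0h value, that of 5 of 6 alveolar type 2 markers 0.199 times, that of the 6 macrophage markers 0.909 times and that of the 6 T and NK cell markers 0.955 times. The sum of 5 fibroblast markers was 0.688 times its 0h value, that of 4 of 6 alveolar type 1 markers 1.52 times, that of 4 of 5 B and plasma cell markers 1.69 times, that of the 4 ciliated cell markers 0.457 times and that of 2 of 3 red cell markers 0.0697 times. The sum of 3 of 7 plasmacytoid dendritic cell markers was 1.14 times its 0h value, and that of 4 of 7 monocyte and neutrophil markers 0.286 times. None of the markers with a row was at 0 in all libraries of a group and time. The part of these shifts in the values of pig 4 was not tested.

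At 12h the PD pigs moved in a different pattern. The medians of the 34 log2 ratios were 0.94, 1.06 and 0.75 in pigs 3, 4 and 5, with 25, 26 and 25 genes above 0 and 16, 18 and 14 over 2-fold higher. Over all genes tested, 17.3%, 28.8% and 18.4% were over 2-fold higher in these pigs. In pig 2, whose 12h library stands apart, the median was −0.62 and 11 genes were above 0. Some cell type markers divided the same pigs at 12h. The summed red cell markers were 0.0832, 0.0427 and 0.0617 times their 0h value in pigs 3, 4 and 5 and 6.98 times in pig 2. The alveolar type 2 sum was 0.842, 0.339 and 0.380 times and 2.29 times in the same order, the monocyte and neutrophil sum 0.526, 0.447 and 0.539 times and 2.32 times, and the endothelial sum 1.51, 1.67 and 1.58 times and 1.12 times. The macrophage sum was 0.641, 0.970 and 0.890 times in pigs 3, 4 and 5 and 1.56 times in pig 2. For alveolar type 1 markers it was 1.02, 1.61 and 0.534 times and 2.15 times in that order. The ciliated cell sum was 0.597, 0.472 and 1.17 times and 1.46 times. The remaining sums did not divide them clearly. In pigs 3, 4, 5 and 2 the B and plasma cell sum was 0.262, 1.61, 1.45 and 0.165 times its 0h value. The T and NK cell sum was 0.343, 0.616, 0.716 and 0.760 times in that order. For plasmacytoid dendritic cell markers it was 1.05, 0.710, 2.21 and 2.60 times, and for fibroblast markers 0.595, 0.900, 0.579 and 0.857 times. The part of these shifts in the values was not tested. STAT2, a subunit of the factor that binds the ISRE, measured 81.3, 86.8, 80.6 and 67.4 CPM at 0h in pigs 2, 3, 4 and 5 and 23.1, 118, 137 and 67.4 CPM at 12h. It was lower in pig 2, higher in pigs 3 and 4 and at the same level in pig 5, and did not pass in any comparison over time. Without the 12h library of pig 2, 10 of 34 genes passed at 12h against 0h, 9 higher and 1 lower, and 4350 genes passed in all (27.4%). The 9 were ISG15, IFIT2, IFIT5, OAS1, MX2, HERC5, HERC6, EIF2AK2 and TRIM25, and the one that fell was IFI35, an interferon-induced leucine zipper protein (log2 change −1.49). HERC5 and HERC6 encode the ligases of ISG15, and EIF2AK2 encodes PKR, the kinase that stops translation on sensing double-stranded RNA.

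**Figure D3:**
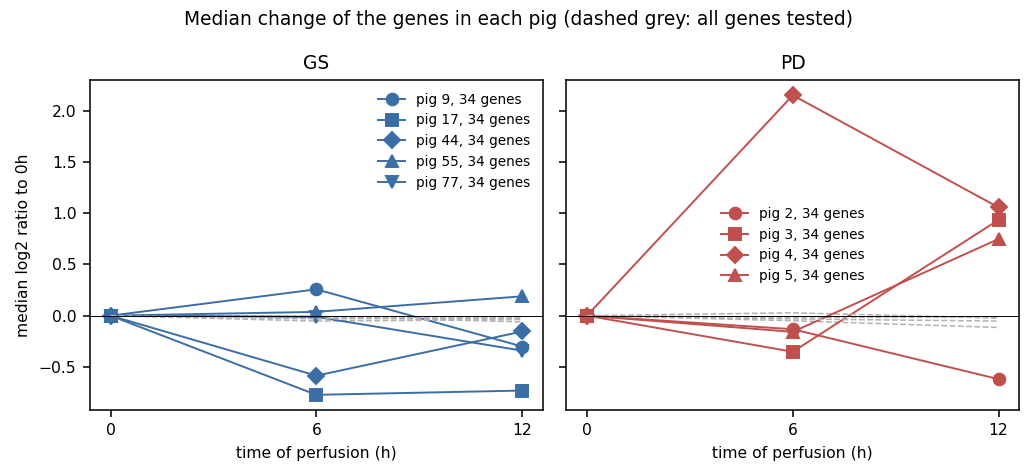
Median log2 ratio to 0h of the 34 genes in each pig (coloured lines) and of all genes tested (dashed grey lines) against time of perfusion, GS left and PD right. The GS pigs end between −0.73 and 0.19 at 12h, and the PD pigs at −0.62, 0.94, 1.06 and 0.75.

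The central question of the design is whether the change from 0h differed between PD and GS. At neither time did any of the 34 genes pass, by the edgeR interaction of group and time or by the exact Wilcoxon test on the change of each pig, and no gene of the whole table passed in either. DESeq2 called none of the 34 at either time. With 4 and 5 pigs the Wilcoxon test cannot go below a p of 0.0159. After adjustment over all genes, a call would need very many genes at that floor. The lack of calls is therefore not evidence that the changes were alike in the 2 groups. At an unadjusted p under 0.05 the interaction gave 0 of 34 at 6h (5.85% of all genes) and 8 of 34 at 12h (23.5%, against 5.98% of all genes). The 8 were DHX58, OAS1, TAP1, ISG15, ZBP1, HERC6, HERC5 and DTX3L, and all stood higher in PD. The Wilcoxon test gave 0 of 34 at 6h (6.04% of all genes) and 6 of 34 at 12h (17.6%, against 4.04%), all higher in PD. The difference was above 0 for 30 of 34 genes at 6h and for 30 at 12h, with medians of 0.59 and 0.78. Over all genes 51.6% and 49.4% were above 0, with medians of 0.02 and −0.01. Without PD pig 4 at 6h the 6h median was 0.02, with 19 above 0, and without PD pig 2 at 12h the 12h median was 1.15, with 32 above 0 and 20 at an unadjusted p under 0.05, against 23.3% of all genes in the same fit.

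The genes that separated the groups most in the 12h change did so by lower values in GS, higher values in PD, or both. DHX58 measured 16.3, 29.6, 9.72, 15.9 and 12.5 CPM at 0h and 7.05, 8.36, 6.75, 13.3 and 6.99 CPM at 12h in the GS pigs. In the PD pigs it measured 18.4, 10.2, 26.05 and 11.2 CPM at 0h and 35.3, 23.1, 27.2 and 11.2 CPM at 12h. It was lower in every GS pig and in no PD pig, although in PD pigs 4 and 5 it hardly moved. The mean log2 ratio was −0.93 ± 0.61 (SD, n = 5) in GS and 0.55 ± 0.60 (SD, n = 4) in PD, and the exact permutation p was 0.0159, or 0.270 adjusted over the 68 such comparisons made (34 genes at 2 times). ZBP1, a sensor of Z-form nucleic acids, had mean log2 ratios of −0.63 ± 0.59 (SD, n = 5) in GS and 1.03 ± 0.86 (SD, n = 4) in PD, with an exact permutation p of 0.0238 (adjusted 0.308).

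OAS1 and TAP1 were higher at 12h than at 0h in every PD pig, while their mean in GS stayed near its 0h value. OAS1 encodes the enzyme whose product activates RNase L. In GS it measured 17.7, 43.1, 21.1, 35.4 and 36.9 CPM at 0h and 13.4, 29.8, 24.99, 55.2 and 38.5 CPM at 12h, and in PD 51.9, 61.6, 41.5 and 39.5 CPM at 0h and 83.7, 167, 147 and 114 CPM at 12h. All PD values at 12h lay above all GS values at 12h. The mean log2 ratio was 0.00 ± 0.48 (SD, n = 5) in GS and 1.37 ± 0.48 (SD, n = 4) in PD, with an exact permutation p of 0.0159 (adjusted 0.270). The OAS1 gene lies within the span of OAS2 on the same strand, so reads of these genes may be shared.

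TAP1, which carries peptides to MHC class I, measured 140.3, 148, 143, 161 and 175 CPM at 0h in GS and 117, 124, 171, 193 and 177 CPM at 12h. In PD it measured 152, 175, 328 and 188 CPM at 0h and 216, 314, 401 and 382 CPM at 12h. Each PD pig was higher than at 0h and the GS pigs were split, 3 higher and 2 lower. The mean log2 ratio was 0.00 ± 0.26 (SD, n = 5) in GS and 0.67 ± 0.33 (SD, n = 4) in PD, with an exact permutation p of 0.00794, the smallest that 126 divisions of the pigs allow, and 0.270 after adjustment. The log2 ratios at 12h did not overlap between the groups for 4 of 34 genes (DHX58, OAS1, DTX3L and TAP1), against 2.09% of all genes tested, and at 6h for none (3.12%). DTX3L belongs here because its mean log2 ratio was closer to 0 in PD (−0.19 ± 0.23, SD, n = 4) than in GS (−1.14 ± 0.44, SD, n = 5), with an exact permutation p of 0.0159 (adjusted 0.270).

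IFI6, IFI35, IFI44 and IFI44L, interferon-induced genes of mostly unsettled function, stood below 0 in the difference between PD and GS in the 12h change. In the edgeR interaction with all libraries the values ran from −0.40 for IFI6 and IFI35 to −0.03 for IFI44, and the other 30 genes were above 0. None of these differences passed. The values depended on PD pig 2 at 12h, where IFI6 was at 2431 CPM. Without that library IFI6 was at −1.04 (adjusted p = 0.191) and IFI35 at −1.26 (adjusted p = 0.110), while IFI44 turned to 0.36 and IFI44L to 0.00, so that IFI6 and IFI35 alone were below 0. In the mean log2 ratios of the pigs OASL and STAT2 were also below 0, with differences of −0.20 and −0.01. By role, the median interaction at 12h with all libraries was 1.12 for the 5 sensors, 1.13 for the 3 IFIT genes, 0.81 for the 3 GTPases, 1.03 for the 4 other antiviral effectors, 0.71 for the 3 oligoadenylate synthases, 0.71 for the 4 genes of signalling and ADP-ribosylation and 0.67 for the 6 genes of ISG15 conjugation. Without PD pig 2 at 12h these medians lay between 0.852 and 1.42. The 5 other interferon-induced genes went the other way, with a median of −0.31 and 1 above 0. Without that library their median was 0.0045, with 3 above 0. TAP1, alone in its role, was at 0.68, and at 0.74 without that library. For the 20 genes with the ISRE core the median was 0.62 and for the 14 without it 1.03, or 0.87 and 1.28 without that library. With all libraries it was 0.05 for the 7 genes with short transcripts and 0.91 for the 10 with long transcripts. IFI6, IFI35 and IFI44 are in the short class, as is ISG15. The part of transcript length in the difference between roles was not tested.

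**Figure D4:**
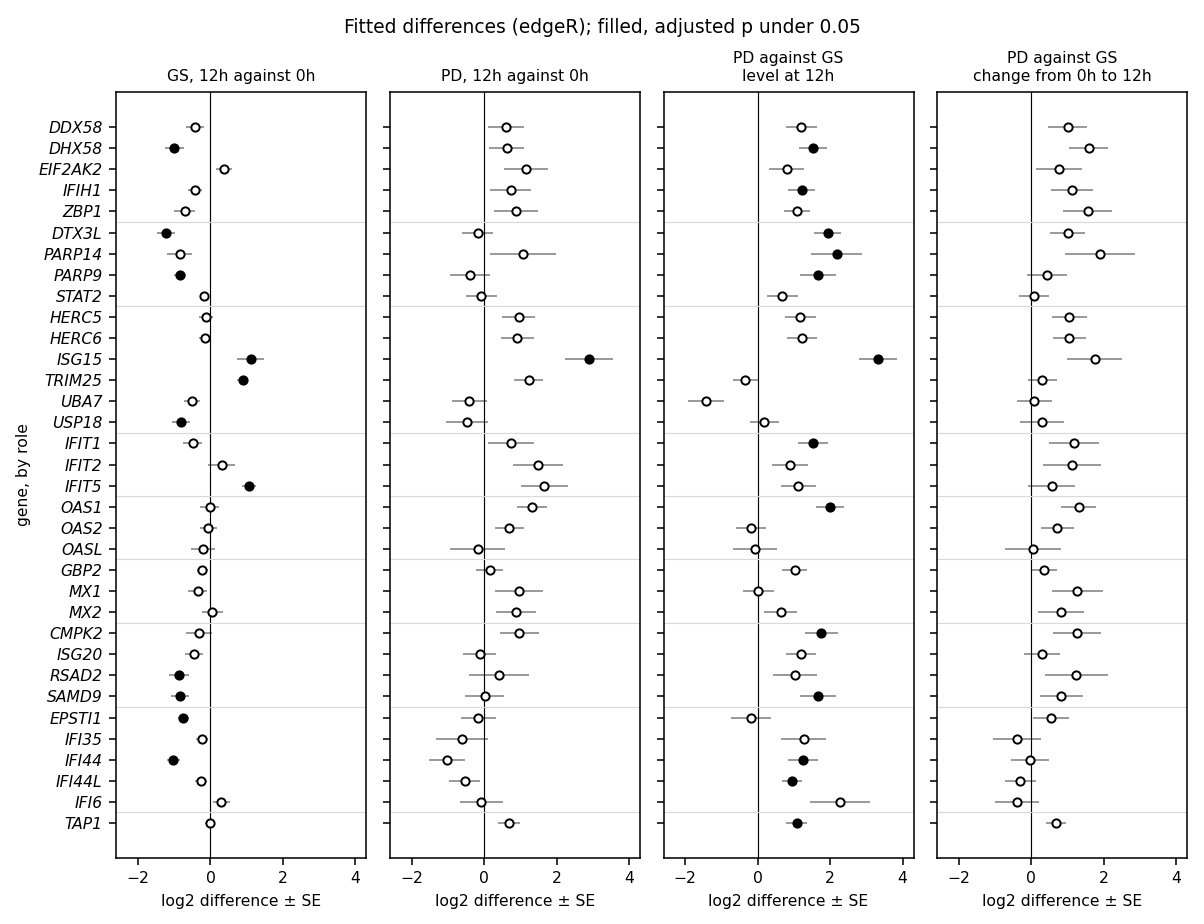
Fitted log2 differences with SE (edgeR) for each of the 34 genes by role: 12h against 0h in GS and in PD, the level in PD against GS at 12h, and the difference between PD and GS in the change from 0h to 12h. Filled points passed at an adjusted p under 0.05, which were 11, 1, 13 and 0 of 34.

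Levels between the groups differed at all times, including before perfusion. At 0h, 13 of 34 genes passed, 10 higher and 3 lower in PD, against 40.6% of the 16477 genes tested (21.3% higher and 19.3% lower). Levels did not overlap between the groups, with PD higher, for IFI35, PARP9 and DTX3L, 3 of 34 against 15.4% of all genes. The highest differences were IFI6 (log2 difference 1.75 ± 0.53, SE, adjusted p = 0.0203), ISG15 (1.62 ± 0.40, adjusted p = 0.00706), IFI44 (1.32 ± 0.37, adjusted p = 0.0128) and IFI35 (1.30 ± 0.33, adjusted p = 0.00808), all among the 7 genes with short transcripts, of which 5 were higher and none lower. With the trend of each library with transcript length removed, ISG15 at 0h went to −0.07 and the calls became 5 higher and 4 lower, against 37.8% of all genes. UBA7, the enzyme that activates ISG15, was lower in PD at 0h by 1.48 ± 0.38 (adjusted p = 0.00867), and TRIM25 by 0.72 ± 0.21 (adjusted p = 0.0151). MX1 was lower by 1.40 ± 0.47 (adjusted p = 0.032). The calls of ISG15, IFI44L, IFI35, PARP9, DTX3L, TRIM25 and UBA7 held with each pig left out, and those of the other 6 were lost without 1 pig or more. UBA7 held 13 to 904 counts in the libraries and OASL 1 to 74.

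At 6h, 8 of 34 passed, 7 higher and 1 lower in PD (24.3% of 16201 genes, 12.8% higher and 11.4% lower). These were IFI44L, ISG15, IFI44, PARP9, OAS1, IFIT1 and DTX3L on the higher side and UBA7 on the lower. Leaving out PD pig 4 gave 3, namely IFI44L higher and OAS2 and MX1 lower, against 19.3% of all genes. None of the 8 passed with each pig left out in turn.

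At 12h, 13 of 34 passed, all higher in PD, against 20.1% of the 16431 genes tested, of which 10.6% were higher and 9.49% lower. The median log2 difference of the 34 was 1.15, with 29 above 0, and that of all genes −0.01. ISG15 differed by 3.31 ± 0.53 (SE, adjusted p = 0.00224), OAS1 by 1.99 ± 0.39 (adjusted p = 0.00562) and DTX3L by 1.93 ± 0.37 (adjusted p = 0.00531). PARP14, an ADP-ribosyltransferase, differed by 2.18 ± 0.71 (adjusted p = 0.0484) and CMPK2, a mitochondrial nucleotide kinase next to RSAD2, by 1.75 ± 0.45 (adjusted p = 0.0191). IFIT1 differed by 1.52 ± 0.41 (adjusted p = 0.024) and TAP1 by 1.08 ± 0.29 (adjusted p = 0.0217). The others were DHX58, PARP9, SAMD9, IFI44L, IFIH1 (which encodes the RNA sensor MDA5) and IFI44. MX1, at 0.02 ± 0.44, and STAT2, at 0.68 ± 0.42 (adjusted p = 0.273), did not pass. Levels did not overlap between the groups for 8 of 34 genes, PD higher in each, against 9.86% of all genes in that direction. With the length trend removed 16 genes passed, all higher, against 16.4% of all genes, and the ISG15 difference was 1.52. Without PD pig 4, 4 remained past the threshold, namely ISG15, OAS1, DTX3L and DHX58, against 13.3% of all genes. Without PD pig 2, 20 passed, all higher, against 29.4% of all genes. ISG15, OAS1 and DTX3L passed with each pig left out in turn, and the other 10 were lost without at least 1 pig.

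The other genes of the pathway were taken from a list by role. Of 18 interferon genes, 5 had a row and 2 (IFNE and IFNG) had enough counts to be tested. Neither passed over time in either group, but IFNG was higher in PD than in GS at 6h by 2.36 on the log2 scale (adjusted p = 0.0175 in edgeR, and 0.0836 without PD pig 2). IFNB1 and IFNA1 had too few counts to test. IFNB1 had 0 counts in all 5 GS libraries at 0h and up to 9 at 12h, and in PD up to 3 counts at 0h, 17 at 6h and 42 at 12h. Its highest values were those of PD pig 2, with 1.08 CPM at 6h and 4.53 CPM at 12h, while PD pig 4 at 6h had 0.13 CPM. These IFNB1 values were chosen after they were seen.

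Genes of the receptors and signalling moved in both directions in GS. At 12h against 0h, 3 of 5 receptor genes tested rose (IFNGR2 by 0.62, IL10RB by 0.78 and IFNGR1 by 0.48) and none fell. Of the kinases, JAK1 rose by 0.54 and TYK2 fell by 0.42. Of the 9 interferon regulatory factors, IRF9 rose by 1.34, IRF1 by 1.16 and IRF4 by 0.55, and IRF2 fell by 1.06 and IRF3 by 0.58. Of the 10 upstream sensing genes, 3 rose (TICAM1, TRAF3 and TBK1) and 5 fell, led by CGAS, the cytosolic DNA sensor, by 1.34. Of the brakes on interferon signalling, SOCS3 rose by 1.99, SOCS1 by 1.15 and PTPN2 by 0.52, and PTPN6 fell by 1.41 and PIAS1 by 0.48. ISG20L2, an exonuclease related to ISG20 and no known brake, was kept in the same list and rose by 0.83. In this comparison 38.4% of all genes tested passed.

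In PD at 12h, 5.98% of all genes tested passed. IRF1, a factor induced by interferon gamma and by inflammatory signals, rose by 2.86 (adjusted p = 0.0149) in 4 of 4 pigs. SOCS3 rose by 2.52 and SOCS1 by 1.61, PTPN6 fell by 1.64, and TRAF3 rose by 1.33. ISG20L2 rose by 1.26. These calls were lost without pig 3 or 5, and, apart from that of IRF1, without pig 4 (adjusted p up to 0.357). No receptor gene passed, nor did JAK1 or TYK2. Of the 23 further interferon-induced genes tested that are not among the 34, 1 rose and 10 fell in GS at 12h, with a median of −0.29, while 17.6% of all genes rose and 20.8% fell. In PD none of the 23 passed and the median was 0.13. In PD against GS, 7 of them were higher and 5 lower at 0h, 9 higher and 2 lower at 6h, and 9 higher and 1 lower at 12h. Over all genes tested, 21.3% were higher and 19.3% lower at 0h, 12.8% and 11.4% at 6h, and 10.6% and 9.49% at 12h. At 12h IDO1, which breaks down tryptophan, differed by 3.99 (adjusted p = 0.0032), and fell in GS by 1.36 from 0h to 12h.

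The chemokines CXCL9, CXCL10 and CXCL11 draw T cells and are induced by interferons. CXCL10 measured 125, 258, 191 and 57.2 CPM at 0h in PD pigs 2, 3, 4 and 5, and 529, 161, 6580.1 and 237 CPM at 6h. At 12h it measured 219, 3767, 9969 and 2340.1 CPM. Pig 4 was highest at both 6h and 12h, and pig 2 was lowest at 12h. The log2 change from 0h to 12h in PD was 4.08 (adjusted p = 0.0371, lost without pig 3, 4 or 5, up to 0.307), and the level in PD exceeded that in GS at 12h by 5.31 (adjusted p = 0.00181, at most 0.00887 with any pig left out). In GS the CXCL10 level at 12h ranged from 94.5 to 107 CPM. At 12h CXCL11 measured 2.48, 12.8, 189 and 3.95 CPM and CXCL9 152, 922, 3202 and 369 CPM in the same pigs, both highest in pig 4. They exceeded GS at 12h by 4.09 (adjusted p = 0.0265) and 2.34 (adjusted p = 0.0425), and by 1.09 (adjusted p = 0.288) and 1.08 (adjusted p = 0.219) without pig 4. The CXCL11 call was also lost without GS pig 9, 17, 55 or 77, and that of CXCL9 without any 1 of the GS pigs or PD pig 3. Neither passed over time in PD. CXCL11 was already higher in PD at 0h, by 1.45 (adjusted p = 0.0464, lost without any 1 of 7 of the 9 pigs), and none of the 3 passed in the difference of the changes at 12h.

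**Figure D5:**
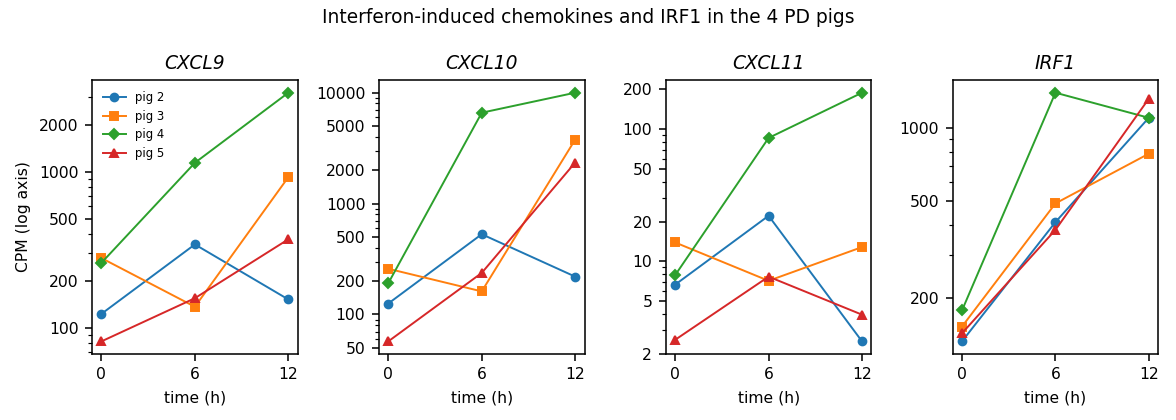
Normalised read counts (CPM, log axis) of the chemokines CXCL9, CXCL10 and CXCL11 and of IRF1 in the 4 PD pigs against time. CXCL10 in pig 4 reaches 6580.1 CPM at 6h and 9969 CPM at 12h, while IRF1 is above its 0h value in all 4 pigs at both times.

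T and NK cell markers moved as follows beside these values. In GS at 12h none of the 6 rose and 4 fell, against 17.6% and 20.8% of all genes, and in PD none rose and 1 fell, where 5.98% of all genes passed. Their summed level in PD was 256 to 474 CPM at 0h, 193 to 247 CPM at 6h and 159 to 195 CPM at 12h. In GS it was 262 to 443 CPM at 0h and 122 to 331 CPM at 12h. The 6 macrophage markers, of which none passed in GS or PD at 12h, summed to 1474 to 3326 CPM in PD and 2433 to 3988 CPM in GS at 12h. The part of cell composition in the results was not tested.

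Of the 5 names without a row, 2 could be found by the description of a row without a symbol. The RTP4 row fell in GS by 1.28 ± 0.25 (SE) over 6h and by 1.82 ± 0.25 over 12h, with adjusted p-values of 0.00301 and 0.00028, and in PD had a log2 change of 0.10 ± 0.59 at 12h (adjusted p = 0.936). The GBP1 row rose in PD by 1.75 ± 0.42 at 12h (adjusted p = 0.0369), against 0.33 ± 0.18 in GS (adjusted p = 0.152). With 1 of the pigs left out no gene of the whole table passed in PD at 12h, so the GBP1 call ended too. The edgeR interaction at 12h was 1.38 ± 0.42 for GBP1 (adjusted p = 0.677) and 1.88 ± 0.63 for RTP4 (adjusted p = 0.704). The span of the GBP1 row overlaps that of GBP2 on the other strand, and the strand counted is not given in the sources used here. These rows are outside the 34 and in none of the counts above.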

How the data were processed

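Per the labels and the methods of the study, total RNA of lung tissue was extracted with 1 of 2 kits (which one a sample received is not given in the sources used here), made into stranded mRNA libraries, trimmed, aligned to Sscrofa11.1 and counted. The submitters' processing notes name bcl2fastq 2.2.18.12, cutadapt 1.15, TopHat2 2.0.14, featureCounts (Subread 1.6.0) and DESeq2 1.18.1. How strand and multiply aligned reads were treated in counting is not given in the sources used here, so close relatives (IFIT, OAS, GBP and HERC genes) and overlapping genes are uncertain. The deposited values are whole-number counts per gene, not normalised, in 27 libraries, all used as deposited. Library pairs all differed well beyond sampling noise (chi-square over degrees of freedom at least 39.85).

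Group, pig and time came from the labels. Members and lists were chosen with earlier results of these data known. Genes were tested with edgeR 4.0.16 (limma 3.58.1, R 4.3.3): filterByExpr, TMM, robust quasi-likelihood F tests, two-sided, Benjamini-Hochberg adjusted over all genes tested. A gene passed at an adjusted p under 0.05, and the study's further threshold, a fold change of at least 2, was tried beside it. Time points were compared within each group with the pig as replicate block, levels with the 9 libraries of a time, and changes by the interaction (27 libraries, pig as block) and by the Wilcoxon rank-sum test (exact, two-sided), applied to the rlog value (DESeq2 1.42.0) less that of the same pig at 0h. Same-pig residuals correlated at a mean r of 0.513 in GS (0.344 to 0.730) and 0.112 in PD (−0.265 to 0.462), against −0.116 and −0.0337 between pigs. The pairing comes from the labels, which give the pig. Single genes were also tested by exact two-sided permutation of log2 ratios (pseudocount 0.5). Levels are CPM on TMM-scaled library sizes. CPM of different genes were not compared. Every gene of the 34 could be named. Full statistics were kept for the 6 with the largest change among those that passed and moved alike in every pig, and for 1 gene per role. Pathway genes that passed could be named, up to 6 per list.

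Transcript lengths and promoters were taken from RefSeq annotation of Sscrofa11.1, the build of the table (all gene ends lay within its chromosomes). All 34 genes matched, and 14915 of the 17884 genes tested had a length. The scripts were tested on simulated data. Settings tried were no replicate block, DESeq2 in place of edgeR, its size factors in place of TMM, no low-count filter, a fold change of at least 2, all libraries in 1 fit, log2 CPM in place of rlog, a pseudocount of 2 and each pig left out. Removing the length trend and leaving out the libraries of PD pig 4 at 6h or PD pig 2 at 12h were added after seeing the data, as was leaving out each pig for the pathway genes. One gene of the pathway lists is not reported here.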

Additional observations from a re-analysis of the deposited data

Results flagged for a closer look

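A library lying far from the others of its group and time was looked for in each gene, group and time, which made 204 checks of 4 or 5 libraries. There were 11 such values in the 204 checks. Chance gives about 1 in 20 per check, so some such values arise by chance alone. The checks share libraries and are not independent, so the number was not tested against chance. PD pig 4 at 6h accounted for 3 of them, with MX1 at 389.7 CPM, TAP1 at 395 CPM and ZBP1 at 190.0 CPM, all above the other PD pigs. The median log2 ratio to 0h of the 34 genes in that pig, 2.15, was far from the other PD pigs as well.

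In GS pig 17 at 0h CMPK2 stood at 55.1 CPM and STAT2 at 84.0 CPM, above the other GS pigs. In GS pig 9 at 12h TRIM25 stood at 85.3 CPM and UBA7 at 1.64 CPM, below the others. In PD pig 2, IFI6 at 12h stood at 2431 CPM and ZBP1 at 0h at 29.3 CPM, above the others. TRIM25 in PD pig 4 at 0h was low at 40.7 CPM, and UBA7 in PD pig 5 at 6h was high at 6.11 CPM.

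Between 0h and 12h DHX58 became lower in every GS pig and in no PD pig. The mean log2 ratios differed by 1.48, and the interaction was 1.58 with an adjusted p of 0.732 in edgeR. In PD pig 5 the level was 11.2 CPM at both times, and in PD pig 4 it was 26.05 CPM at 0h and 27.2 CPM at 12h.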

How the results depend on the processing

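The groups differ in depth without overlap, which limits the PD counts of low genes most (OASL, UBA7, IFNB1). Requiring a fold change of at least 2 left 4 genes (15.7%) in GS at 12h and 1 at 6h, for which no share of all genes is given. The share of all genes that passed in the same fit is in brackets. All 27 libraries in 1 fit gave 2 (8.98%) and 2 (16.1%) in GS and 5 (22.9%) in PD at 12h. Without the pig as replicate block, 1 (9.31%) and 3 (16.6%) passed in GS at 6h and 12h and 0 (9.57%) in PD at 12h, and the block moved no other count by over 1.5 times. DESeq2 called 4 genes (17.8%) in PD at 12h (ISG15, OAS1, TRIM25 and IFIT5) and 20 (29.0%) in the level at 12h, 19 higher and 1 lower in PD. With the length trend removed 2 (8.17%) passed in PD at 12h and 5 (23.1%) in the level at 6h, and the ISG15 level at 0h turned to −0.0683 on the log2 scale. Without a filter on low counts 4 (13.4%) passed in the level at 6h. In PD at 12h, 10 (27.4%) passed without the 12h library of pig 2 and 2 (5.08%) without the 6h library of pig 4. The cause of these shifts was not tested.

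Leaving out 1 pig gave 4 to 11 genes in GS at 6h (14.9% to 25.6%), 8 to 12 at 12h (25.3% to 40.3%) and 0 to 8 in PD at 12h (0 to 25.5%). In the levels it gave 10 to 15 at 0h (34.2% to 43.6%), 2 to 12 at 6h (10.7% to 27.4%) and 4 to 20 at 12h (12.5% to 29.4%). The genes with an exact permutation p under 0.05 numbered 7 over the 68 comparisons made, and 4 to 20 with 1 pig left out. This test was run on the 34 genes only, so no share of all genes stands beside these counts. None of the 34 genes (0 in each) passed with any pig left out between 6h and 12h, in PD at 6h, or in the difference of the changes by either test. Up to 0.624% of all genes passed in PD at 6h, and up to 1.37% at 6h and 0.824% at 12h in the interaction. Of the values of single genes that passed, 479 kept their direction and call under an alternative, 183 kept their direction and lost the call, and 1 reversed.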
